A study of Mus musculus with 9 samples.

Results

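The genes of the IL-17, TNF and NF-kB signalling pathways were examined across mouse cells labelled as overexpressing mutated S100A8 or as their overexpression control. The 51 genes were chosen by symbol as listed receptors, adaptors, kinases, NF-kB factors and direct response genes, and all 51 were found among the 19240 genes of the expression table. RNA-seq had been performed on 9 libraries in 3 groups of 3. The labels describe OEA8_Ctrl as an overexpression control, OEA8_67 as overexpressing S100A8 with a point mutation at residue 67, and OEA8_69 as overexpressing S100A8 with a point mutation at residue 69. In the study the reference for both mutants is cells overexpressing S100A8, a detail that the label of OEA8_Ctrl leaves unstated. For these libraries the labels give no mouse strain, age, promoter of the construct or clone. No source says that replicates were grown separately, and the p-values cover the variation among libraries alone, part of which could be technical. Because S100A8 is an alarmin with known links to inflammatory signalling, the comparison of interest was whether these pathway genes differ between each mutant and the control and between the mutants.

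IL-17 cytokines bind paired receptors of the IL-17R family, which recruit the adaptor Act1 and, through it, TRAF ubiquitin ligases. TNF binds TNFR1, which assembles a complex of RIPK1, TRAF2 and the cIAP ligases, and most Toll-like receptors, though not TLR3, use MyD88. These routes converge on the TAK1 kinase complex, which activates the IKK complex and the MAP kinases JNK and p38. IKK marks IkB proteins for degradation and so releases NF-kB dimers into the nucleus, where they switch on response genes, including those of their own inhibitors. Fibroblasts are well known responders to IL-17 and TNF, which act together on the genes of chemokines and growth factors. Most of these steps are controlled on proteins, and transcript levels report only the supply of the components and the output of the response genes.

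Expression is given as FPKM, a fragment count corrected for transcript length and for the size of the library, and fold changes are on the log2(FPKM + 1) scale, which understates the change of low genes. The FPKM values of a library summed to between 469909 and 501342, and the read depth is not known from the table. The labels call the cells hematopoietic stem cells, whereas the study describes mouse embryonic fibroblasts. All 10 fibroblast markers were above 1 FPKM on average, against 2 of 10 hematopoietic stem and progenitor markers, 2 of 9 myeloid and 0 of 6 lymphoid markers, so the label was not borne out by these markers. Of 8 endothelial markers, 1 was above 1 FPKM, and their summed level was between 12.4 and 13.4 FPKM in OEA8_Ctrl, 1.0 and 1.44 in OEA8_67, and 0.520 and 1.01 in OEA8_69. Most of that sum came from Cdh5, the gene of VE-cadherin, and Tie1 was listed at 0 in each mutant library. The summed myeloid markers were also lower in the mutants, at 9.41 to 10.3 FPKM in OEA8_Ctrl, 7.85 to 8.58 in OEA8_67 and 7.18 to 7.80 in OEA8_69, with Elane at 0 in each library. Only 2 myeloid markers were tested, and they did not fall together in OEA8_67, where 1 was called lower (-0.39) and the other differed by 0.05. In OEA8_69 their differences were -0.37 and -0.19, and 1 was called. The summed fibroblast markers were at 6118 to 6514, 5753 to 5975 and 6100 to 6299 FPKM. Of the 10, 4 were called lower in OEA8_67 and 2 in OEA8_69, beside 4.66% and 5.24% of all genes. The summed hematopoietic stem and progenitor markers went the other way, at 11.6 to 12.8, 13.0 to 13.8 and 13.2 to 14.7 FPKM. Of the 2 tested, 1 was called higher in OEA8_69. Several of these sums thus moved with the groups, some down and 1 up, and their part in the results was not tested. In bulk libraries fewer cells of a type and less RNA per cell cannot be told apart. S100a8 itself stood at 4.10, 3.98 and 6.0 FPKM in OEA8_Ctrl, 5.95, 4.54 and 6.24 in OEA8_67, and 3.75, 6.24 and 5.44 in OEA8_69. The 3 groups overlapped, and S100a8 was called in neither mutant (adjusted p = 0.449 and adjusted p = 0.745, limma). No group is labelled as free of overexpression, so whether levels of 3.75 to 6.24 FPKM reflect the construct could not be tested. They do not establish equal expression of the construct in the 3 groups.

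The promoter windows of the 4 genes called in the same direction in both mutants and present in the RefSeq promoter table are printed because they show which of these genes carry an NF-kB consensus next to an annotated start. Each window runs from 250 bases before to 50 bases after that start, 5′ to 3′ on the strand of the gene, in GRCm38.p6. Capitals mark the match to the NF-kB consensus, and the table has no entry for Tlr4.
Csf1 (chr3:107760420-107760719, minus strand, NF-kB match in capitals): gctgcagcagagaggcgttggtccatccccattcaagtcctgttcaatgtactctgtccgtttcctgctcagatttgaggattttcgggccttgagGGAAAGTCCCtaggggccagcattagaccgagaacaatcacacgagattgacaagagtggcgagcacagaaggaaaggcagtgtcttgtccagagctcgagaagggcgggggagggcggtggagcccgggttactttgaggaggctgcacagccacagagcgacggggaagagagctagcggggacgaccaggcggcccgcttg
Sod2 (chr17:13007589-13007888, plus strand, NF-kB match in capitals): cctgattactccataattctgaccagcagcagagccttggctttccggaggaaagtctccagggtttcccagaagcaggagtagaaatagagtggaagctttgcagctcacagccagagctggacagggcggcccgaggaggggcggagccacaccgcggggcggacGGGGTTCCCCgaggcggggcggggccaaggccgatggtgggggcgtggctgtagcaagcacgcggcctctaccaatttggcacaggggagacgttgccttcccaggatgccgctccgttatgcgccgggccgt
Tnfaip2 (chr12:111442411-111442710, plus strand, no match): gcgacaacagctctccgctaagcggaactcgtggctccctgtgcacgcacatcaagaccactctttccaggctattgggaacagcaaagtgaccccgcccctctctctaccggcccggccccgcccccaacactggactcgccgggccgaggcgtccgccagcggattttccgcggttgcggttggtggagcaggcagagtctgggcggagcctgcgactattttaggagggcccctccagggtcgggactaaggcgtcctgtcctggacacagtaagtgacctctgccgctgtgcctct
Mapk12 (chr15:89140654-89140953, minus strand, no match): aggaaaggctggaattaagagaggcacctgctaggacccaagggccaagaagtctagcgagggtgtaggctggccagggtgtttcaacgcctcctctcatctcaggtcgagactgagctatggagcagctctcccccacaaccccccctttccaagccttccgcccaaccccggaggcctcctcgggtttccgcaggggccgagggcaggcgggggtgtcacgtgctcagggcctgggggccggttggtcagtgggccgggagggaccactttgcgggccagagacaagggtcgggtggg
The match began 154 bases before the start of Csf1 and 83 bases before that of Sod2, the former read on the opposite strand, and neither the consensus nor TGANTCA, the AP-1 motif, was found in the other windows. For Tnfaip2 and Mapk12 the start lies inside the span annotated for the gene. Of the 51 genes, 41 had an entry, with 52 windows in all. The NF-kB consensus, searched on both strands, was in 13 of the 52 windows, against 4.51% of all 32851 windows, and those windows belonged to 11 genes. These were Bcl3, Csf1, Map3k7, Nfkb2, Nfkbia, Nfkbie, Sod2, Tlr2, Tlr3, Tnfaip3 and Traf3. TGANTCA was in 7 of the 52 windows, against 7.81% of all, at Ikbke, Ikbkg, Nfkb2, Nfkbie and Tnfaip3. The 51 genes were chosen partly as NF-kB factors and direct response genes, so their share of NF-kB matches is not independent of that choice. Windows of the same gene can overlap, and a match is a description of the letters and not of a bound factor.

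Nearly all parts of the pathway were transcribed in these cells. The most abundant member was Csf1, which encodes the macrophage growth factor M-CSF, with a mean of 233 FPKM over the 9 libraries. Cebpb, a transcription factor that works with NF-kB on IL-17 responses, followed with 206 FPKM, then Mapk3, the gene of the kinase ERK1, with 153 FPKM and Tnfrsf1a, the gene of TNFR1, with 119 FPKM. At the other end, Il17re, a receptor chain for IL-17C, averaged 0.106 FPKM, Icam1, an adhesion molecule, 0.179 FPKM, and Traf1, a TRAF without a ligase domain, 0.386 FPKM. These 3 genes fell under the minimum mean of 0.5 FPKM, and the other 48 were tested among 12012 genes.

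**Figure D1:**
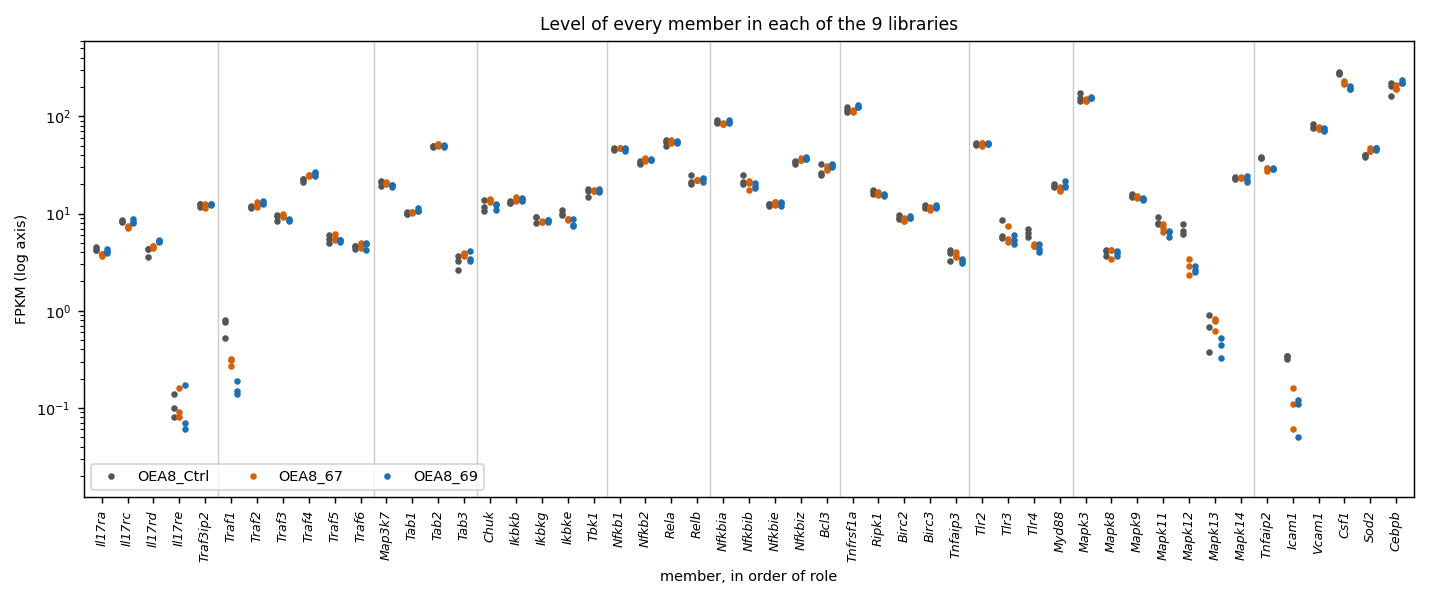
FPKM of each of the 51 genes (log axis) in the 9 libraries, ordered by role and divided by vertical lines; grey points are OEA8_Ctrl, orange OEA8_67 and blue OEA8_69. Most genes differ little between groups on this scale, and Mapk12, Traf1 and Icam1 stand visibly lower in both mutants.

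Few members changed in either mutant, and those that did were spread over several roles. In OEA8_67, 6 of 48 members (12.5%) were called at an adjusted p under 0.05, against 7.88% of all genes tested. Sod2 rose, and Il17rc, Tlr4, Mapk12, Tnfaip2 and Csf1 fell. In OEA8_69, 9 of 48 (18.8%) were called, against 9.79% of all genes. Il17rd, Traf4 and Sod2 rose, and Ikbke, Tlr4, Mapk11, Mapk12, Tnfaip2 and Csf1 fell. Between the mutants 1 of 48 was called, Csf1, against 3.16% of all genes, and 0 were called higher in OEA8_69. At an unadjusted p under 0.05 the counts were 13, 15 and 7 of 48 in the 3 comparisons. The share of all genes at that threshold was not counted, so these counts say nothing particular about the members. A moderated F test over the 3 groups called 10 of 48, against 12.1% of all genes, and these were the 10 genes called in at least 1 of the pairwise comparisons. Both comparisons with the control share the OEA8_Ctrl libraries and are not independent of each other. Without OEA8_Ctrl replicate 3 the members that rose and fell in OEA8_69 were 6 and 8, as Bcl3, Tnfrsf1a, Cebpb, Tnfaip3 and Mapk13 then passed, and 2 were higher in OEA8_69 than in OEA8_67. In OEA8_67, 2 rose without OEA8_Ctrl replicate 2 or 3, 0 rose without OEA8_Ctrl replicate 1 or OEA8_67 replicate 2 or 3, and 3 fell without OEA8_67 replicate 3. In OEA8_69, 2 rose without OEA8_Ctrl replicate 2 and 1 without OEA8_69 replicate 1 or 3. The counts over all genes moved with these removals as well. In OEA8_69, 546 genes higher and 630 lower became 293 to 952 and 442 to 842. In OEA8_67, 386 and 560 became 125 to 468 and 331 to 580. Between the mutants, 227 higher became 82 to 589. Whether the member counts moved more than those was not tested.

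The typical member differed little. The median log2 fold change over the 48 was 0.00 in OEA8_67 and -0.00 in OEA8_69, beside 0.02 and 0.02 over all genes, and its median size was 0.07 and 0.09, beside 0.08 and 0.08. The libraries of the mutant and the control did not overlap for 15 of 48 members in OEA8_67 and 16 of 48 in OEA8_69, against 28.2% and 27.5% of all genes. For the mutants against each other this held for 16 of 48, against 31.6%. The 95% interval of the fold change lay within 0.5 of 0 on the log2 scale for 46 of 48 members in OEA8_67, against 94.7% of all genes, for 43 of 48 in OEA8_69, against 93.9%, and for 47 of 48 between the mutants, against 96.6%. In each comparison these shares of separated libraries and of narrow intervals were near those of all genes.

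**Figure D2:**
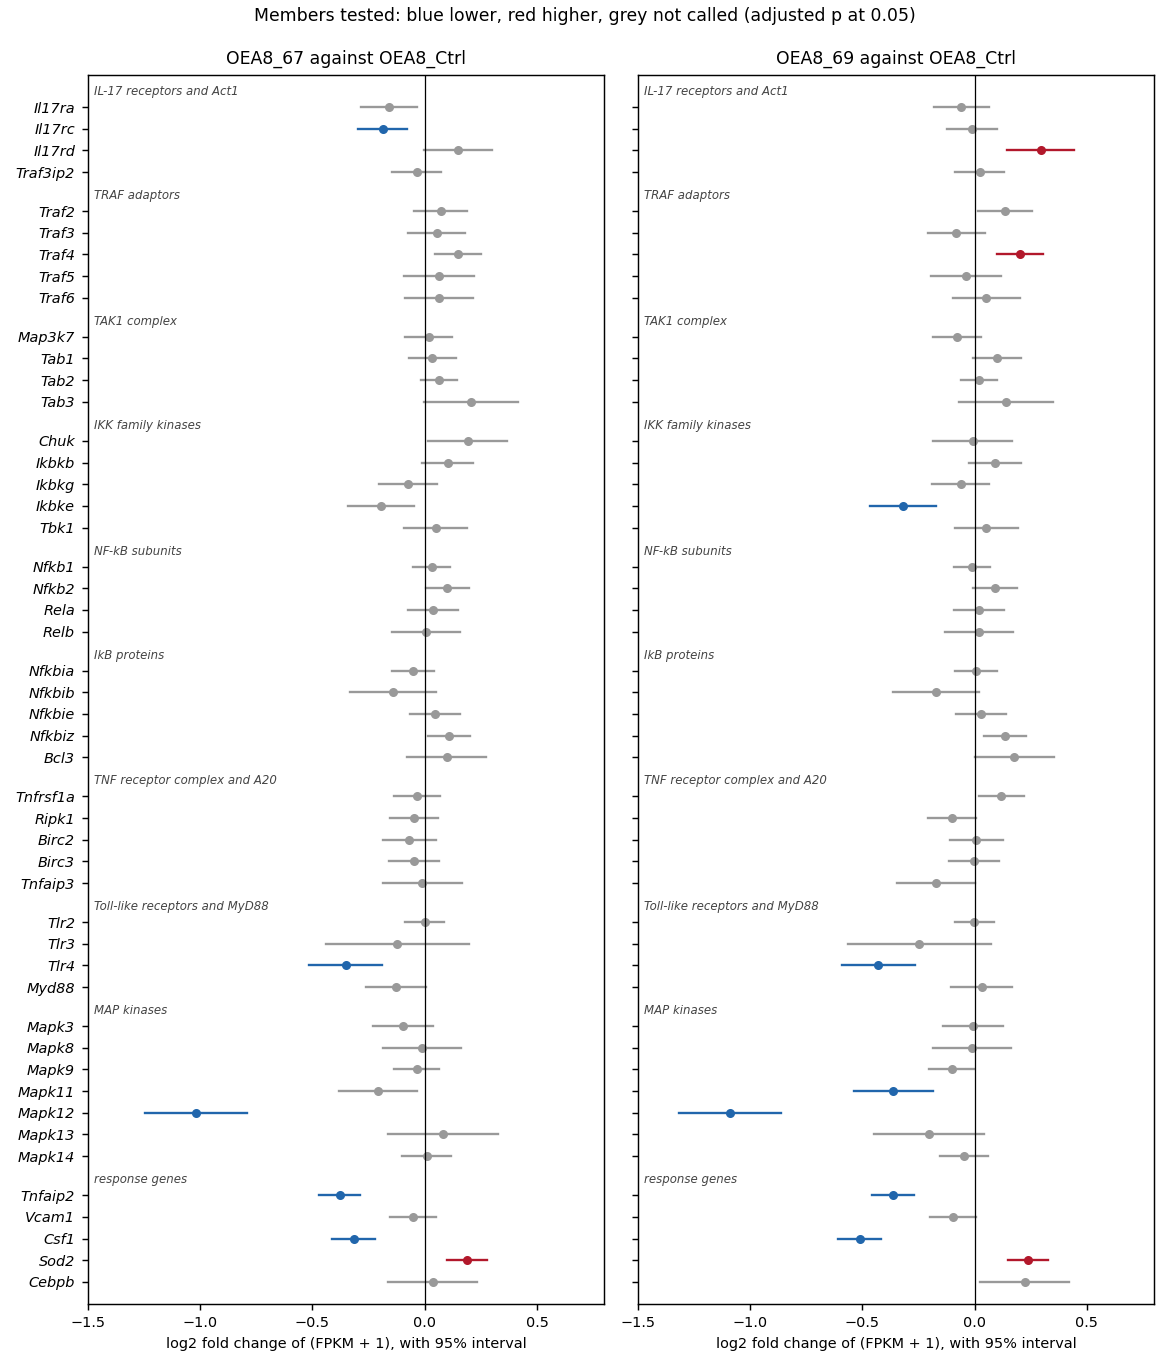
Log2 fold change of (FPKM + 1) with its 95% interval for the 48 genes tested, in OEA8_67 (left) and OEA8_69 (right) against OEA8_Ctrl, grouped by role; blue is called lower, red called higher and grey not called. The intervals of the NF-kB subunits, IkB proteins and TAK1 complex genes all stay within 0.5 of 0, and Mapk12 lies near -1 in both panels.

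Among the receptors of IL-17, Il17rc was called lower in OEA8_67 and Il17rd higher in OEA8_69, and neither difference between the mutants passed the test. Il17ra, the common signalling chain, was at 4.34 ± 0.17 FPKM in OEA8_Ctrl, 3.78 ± 0.08 in OEA8_67 and 4.12 ± 0.16 in OEA8_69 (SD, n = 3). Its difference in OEA8_67 was -0.16 ± 0.06 (SE) and missed the threshold (adjusted p = 0.110), with a 95% interval from -0.28 to -0.04 and all 3 libraries below every control. Traf3ip2, which encodes Act1, was called in neither mutant, at 12.2 ± 0.41 FPKM in the control, 11.9 ± 0.62 in OEA8_67 and 12.4 ± 0.19 in OEA8_69.

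Il17rc (chr6:113471455-113483163, GRCm38) encodes the chain that pairs with IL-17RA to bind IL-17A and IL-17F. It stood at 8.22, 8.35 and 8.62 FPKM in OEA8_Ctrl, 7.41, 7.19 and 7.15 in OEA8_67, and 8.18, 8.70 and 8.08 in OEA8_69. The OEA8_67 libraries were below every library of the other groups, and OEA8_69 overlapped the control. Il17rc fell by 0.19 ± 0.05 in OEA8_67 (adjusted p = 0.0429) and differed by -0.01 ± 0.05 in OEA8_69 (adjusted p = 0.912). The difference between the mutants, 0.18 ± 0.05, missed the threshold (adjusted p = 0.0840). The call in OEA8_67 was lost in 12 of 19 alternatives, among them the removal of each of the 9 libraries in turn, with adjusted p between 0.0302 and 0.134.

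Il17rd (chr14:27038964-27107286) encodes SEF, a receptor of the same family that can restrain signals of growth factors and IL-17. Its levels were 4.34, 4.28 and 3.55 FPKM in OEA8_Ctrl, 4.68, 4.65 and 4.44 in OEA8_67, and 5.18, 5.06 and 5.32 in OEA8_69. The 3 groups did not overlap, with OEA8_67 between the others. Il17rd rose by 0.29 ± 0.07 in OEA8_69 (adjusted p = 0.0178), and its difference in OEA8_67 was 0.15 ± 0.07 (adjusted p = 0.206). Without OEA8_69 replicate 3 the adjusted p was 0.0667, and the call was also lost without OEA8_69 replicate 1, within a range from 0.0134 to 0.0667 over 18 alternatives. Il17re, the remaining chain, was between 0.06 and 0.17 FPKM in the 9 libraries with overlapping groups.

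The TRAF adaptors, which carry the signal from the receptors to TAK1 and IKK, were mostly uncalled, with Traf4 the exception among those tested. Traf2, Traf3, Traf5 and Traf6 were called in no comparison, and over the 5 tested TRAF genes the 95% intervals against the control reached from -0.21 to 0.30. Traf2, which joins the TNFR1 complex, was at 11.6, 11.5 and 11.8 FPKM in OEA8_Ctrl and 12.8, 13.4 and 12.5 in OEA8_69, all above the controls, and its difference of 0.14 ± 0.05 missed the threshold (adjusted p = 0.148). Traf3, a brake on the non-canonical route, was lower in all OEA8_69 libraries than in those of OEA8_67, by 0.14 ± 0.06 (adjusted p = 0.232). Traf6, which links Act1 and MyD88 to TAK1, was at 4.52 ± 0.18 FPKM in the control, 4.77 ± 0.30 in OEA8_67 and 4.73 ± 0.41 in OEA8_69.

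Traf4 (chr11:78158423-78165579) encodes a TRAF that can compete with TRAF6 for Act1. It measured 22.8, 21.2 and 22.8 FPKM in OEA8_Ctrl, 25.1, 24.4 and 24.9 in OEA8_67, and 26.6, 24.5 and 26.2 in OEA8_69. Every mutant library was above every control library. Traf4 rose by 0.20 ± 0.05 in OEA8_69 (adjusted p = 0.0190), while its difference of 0.15 ± 0.05 in OEA8_67 missed the threshold (adjusted p = 0.0812). The call was lost with only the compared groups in the model and without OEA8_Ctrl replicate 2, OEA8_69 replicate 1 or OEA8_69 replicate 3, with adjusted p between 0.0144 and 0.0898 over 19 alternatives.

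Traf1, itself an NF-kB target whose product binds TRAF2 and the cIAP ligases, was at 0.53, 0.76 and 0.80 FPKM in OEA8_Ctrl, 0.32, 0.31 and 0.27 in OEA8_67, and 0.14, 0.19 and 0.15 in OEA8_69. The 3 groups were fully separated, with OEA8_69 lowest, at levels where few fragments carry the value. Traf1 was not tested with the minimum level. In the model of 18526 genes without that minimum it fell by 0.38 ± 0.06 in OEA8_67 (adjusted p = 0.00664) and by 0.55 ± 0.06 in OEA8_69 (adjusted p = 0.000627), where 4.81% and 6.36% of all genes were called. The mutants differed there by -0.16 ± 0.06 (adjusted p = 0.223, 1.13% of genes called).

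No gene of the TAK1 complex or the core IKK complex was called in the 3 comparisons. Map3k7, which encodes TAK1, was at 20.6 ± 1.05, 20.8 ± 0.53 and 19.4 ± 0.60 FPKM in OEA8_Ctrl, OEA8_67 and OEA8_69, and the genes of its binding partners Tab1, Tab2 and Tab3 were called in no comparison. The highest bound of the 95% intervals in this group was 0.41, for Tab3 in OEA8_67. Chuk and Ikbkb, which encode the kinases IKKα and IKKβ, and Ikbkg, which encodes their scaffold NEMO, were not called. Chuk was at 11.7, 13.7 and 10.6 FPKM in OEA8_Ctrl, 14.3, 13.2 and 13.9 in OEA8_67, and 12.4, 12.3 and 10.95 in OEA8_69. The OEA8_67 libraries overlapped the controls and were all above those of OEA8_69. Its difference from the control was 0.19 ± 0.08 in OEA8_67 (95% interval 0.01 to 0.37, adjusted p = 0.171), and that between the mutants was -0.20 ± 0.08 (95% interval -0.37 to -0.02, adjusted p = 0.206). Without OEA8_Ctrl replicate 2 Chuk was called higher in OEA8_67 (0.28, adjusted p = 0.0307). Ikbkb was at 13.1 ± 0.45 FPKM in the control, 14.1 ± 0.81 in OEA8_67 and 13.98 ± 0.41 in OEA8_69, and Tbk1, an IKK-related kinase of the interferon response, at 16.6 ± 1.63, 17.2 ± 0.27 and 17.2 ± 0.75 FPKM.

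Ikbke (chr1:131254600-131279601), the gene of the inducible IKK-related kinase IKKε, which also phosphorylates Act1, was the exception. It stood at 9.62, 9.80 and 10.99 FPKM in OEA8_Ctrl, 8.73, 8.85 and 8.58 in OEA8_67, and 8.74, 7.43 and 7.63 in OEA8_69. Every mutant library was below every control library, and the mutants overlapped each other. Ikbke fell by 0.32 ± 0.07 in OEA8_69 (adjusted p = 0.0104), and its difference in OEA8_67 was -0.19 ± 0.07 (adjusted p = 0.101). The call in OEA8_69 held in all 19 alternatives, although without OEA8_69 replicate 2 the adjusted p was 0.0494.

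The 4 NF-kB subunit genes and the 5 genes of IkB proteins were called in no comparison. Rela, which encodes the main activating subunit p65, was at 53.9 ± 3.60 FPKM in OEA8_Ctrl, 55.2 ± 1.73 in OEA8_67 and 54.6 ± 1.55 in OEA8_69. Nfkb1, the gene of the p50 precursor, was at 46.2 ± 0.67, 47.2 ± 0.31 and 45.9 ± 1.23 FPKM. These subunit genes had 95% intervals between -0.14 and 0.20 in OEA8_67 and between -0.13 and 0.19 in OEA8_69. Nfkb2 was at 33.5 ± 1.37, 36.0 ± 1.45 and 35.8 ± 0.39 FPKM and Relb, its partner in the non-canonical route, at 22.1 ± 2.56, 22.1 ± 0.11 and 22.3 ± 1.18 FPKM.

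The inhibitor genes that NF-kB itself induces were not called either. Nfkbia, the gene of IkBα and a rapid NF-kB target, was at 87.6 ± 3.48 FPKM in the control, 84.4 ± 1.11 in OEA8_67 and 87.9 ± 3.09 in OEA8_69, with fold changes of -0.05 ± 0.04 and 0.01 ± 0.04. Nfkbiz encodes IkBζ, the nuclear cofactor of the IL-17 response, and was at 33.5 ± 1.28, 36.2 ± 0.86 and 36.9 ± 0.94 FPKM. Its mutant libraries were all above the controls, but the differences of 0.11 ± 0.04 and 0.14 ± 0.04 missed the threshold (adjusted p = 0.143 and adjusted p = 0.0699). Bcl3, another nuclear IkB protein, differed by 0.10 ± 0.08 in OEA8_67 and by 0.18 ± 0.08 in OEA8_69 (95% interval 0.003 to 0.35), with overlapping libraries. Without OEA8_Ctrl replicate 3 it was called higher in both, with adjusted p = 0.0446 and adjusted p = 0.00643. Nfkbib and Nfkbie, the genes of IkBβ and IkBε, were called in no comparison either.

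The TNF receptor complex and the feedback inhibitor A20 were likewise uncalled in the 3 comparisons. Tnfrsf1a was at 117 ± 6.59 FPKM in OEA8_Ctrl, 114 ± 2.04 in OEA8_67 and 127 ± 4.03 in OEA8_69, and all OEA8_69 libraries were above the others. Its difference from the control in OEA8_69 was 0.12 ± 0.05 (adjusted p = 0.137). Ripk1 and the cIAP genes Birc2 and Birc3 were not called, and the widest of their differences from the control was -0.10 ± 0.05, for Ripk1 in OEA8_69. Tnfaip3, the gene of A20 and a sensitive NF-kB target, was at 3.79 ± 0.51 FPKM in the control, 3.74 ± 0.24 in OEA8_67 and 3.24 ± 0.15 in OEA8_69 (fold change -0.17 ± 0.08, adjusted p = 0.208).

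Of the Toll-like receptor genes only Tlr4 was called. Tlr2, which senses bacterial lipoproteins, was at 52.2 ± 1.18 FPKM in the control, 52.2 ± 1.99 in OEA8_67 and 52.2 ± 0.64 in OEA8_69. Myd88, the adaptor gene, was at 19.4 ± 0.79, 17.7 ± 0.84 and 19.9 ± 1.71 FPKM and was not called. Tlr3, the receptor of double-stranded RNA and an interferon-stimulated gene, varied most between replicates, from 5.56 to 8.54 FPKM in OEA8_Ctrl, 5.10 to 7.51 in OEA8_67 and 4.91 to 5.97 in OEA8_69. The summed level of 24 interferon-stimulated genes was between 971 and 1208 FPKM in OEA8_Ctrl, 492 and 969 in OEA8_67, and 380 and 855 in OEA8_69, and its part in the spread of Tlr3 was not tested. Of these genes 23 were tested, and 0 had a positive fold change in either mutant. In OEA8_67 2 were called lower and in OEA8_69 3, beside 4.66% and 5.24% of all genes.

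Tlr4 (chr4:66827551-66846581), which encodes the lipopolysaccharide receptor and a known receptor of S100A8, was at 6.36, 6.88 and 5.68 FPKM in OEA8_Ctrl, 4.67, 4.84 and 4.62 in OEA8_67, and 4.87, 4.06 and 4.35 in OEA8_69. All mutant libraries were below all control libraries, and the mutants overlapped. Tlr4 fell by 0.35 ± 0.07 in OEA8_67 (adjusted p = 0.0141) and by 0.43 ± 0.07 in OEA8_69 (adjusted p = 0.00334). The mutants differed by -0.08 ± 0.07, with a 95% interval from -0.24 to 0.09. The call in OEA8_67 was lost without OEA8_67 replicate 3 (adjusted p = 0.0556, with a range from 0.00584 to 0.0556 over 19 alternatives), and that in OEA8_69 held in all 19. Endothelial and myeloid cells also express Tlr4, both marker sums were lower in the mutant libraries, and their part in the level of Tlr4 was not tested. The myeloid sum is a weak guide, since 1 of the 2 myeloid markers tested did not fall in OEA8_67.

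Ly96, which encodes MD-2, the partner of TLR4 on the cell surface and not among the 51 genes, stood at 9.07, 10.51 and 12.97 FPKM in OEA8_Ctrl, 9.30, 8.63 and 10.2 in OEA8_67, and 7.95, 7.29 and 7.39 in OEA8_69. Only the OEA8_69 libraries were clear of the control. Ly96 fell by 0.46 in OEA8_69 (adjusted p = 0.0129) and differed by -0.18 in OEA8_67 (adjusted p = 0.287). Without OEA8_69 replicate 2 the adjusted p in OEA8_69 was 0.0520, the highest of a range that began at 0.00337.

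The clearest change among the signalling genes was in the p38 family of MAP kinases. Mapk12 (chr15:89130584-89141577) encodes p38γ, a p38 kinase best known from skeletal muscle. It stood at 6.12, 6.59 and 7.80 FPKM in OEA8_Ctrl, 2.89, 3.42 and 2.33 in OEA8_67, and 2.86, 2.53 and 2.64 in OEA8_69. The mutant libraries were far below the controls and overlapped each other. The mean level was 42.1% of the control in OEA8_67 and 39.2% in OEA8_69. Mapk12 fell by 1.02 ± 0.10 in OEA8_67 (adjusted p = 8.22e-05) and by 1.09 ± 0.10 in OEA8_69 (adjusted p = 3.13e-05). Both calls held in all 18 alternatives that tested the gene, with a fall between 0.91 and 1.23 in OEA8_67 and between 1.0 and 1.32 in OEA8_69. The difference between the mutants was -0.07 ± 0.10, with a 95% interval from -0.30 to 0.16.

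Mapk11 (chr15:89142482-89149606), the gene of p38β, lies next to Mapk12 on the same strand with 904 bases between them. It was at 7.85, 7.99 and 9.27 FPKM in OEA8_Ctrl, 6.44, 7.82 and 7.09 in OEA8_67, and 6.45, 5.78 and 6.62 in OEA8_69. No mutant library reached the lowest control library. Mapk11 fell by 0.36 ± 0.08 in OEA8_69 (adjusted p = 0.0135), and its difference of -0.21 ± 0.08 in OEA8_67 missed the threshold (adjusted p = 0.136). The call was lost without OEA8_69 replicate 2 (adjusted p = 0.0617, with a range from 0.0101 to 0.0617 over 19 alternatives). The other neighbours, Tubgcp6 and Hdac10 on the side of Mapk12 and Plxnb2 and Dennd6b on the side of Mapk11, were called in neither mutant. How reads shared between neighbouring genes were counted is not stated.

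Mapk14, which encodes p38α, the main p38 kinase of most cells, was not called, at 23.3 ± 0.56 FPKM in OEA8_Ctrl, 23.4 ± 0.14 in OEA8_67 and 22.5 ± 1.52 in OEA8_69. Mapk13, the gene of p38δ, was at 0.657 ± 0.27, 0.740 ± 0.11 and 0.430 ± 0.10 FPKM and was not called. The composition of the family therefore shifted between control and mutants. Mapk12 made up 17.4% ± 1.59 of the summed FPKM of the 4 p38 genes in OEA8_Ctrl, 8.42% ± 1.37 in OEA8_67 and 8.41% ± 0.79 in OEA8_69 (SD, n = 3). The sum itself was 39.1 ± 1.51 FPKM in the control, 34.1 ± 1.11 in OEA8_67 and 31.9 ± 1.02 in OEA8_69, and the share of Mapk14 was 59.5% ± 2.26, 68.6% ± 1.80 and 70.5% ± 2.56. These shares are a description without a test of their own.

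**Figure D3:**
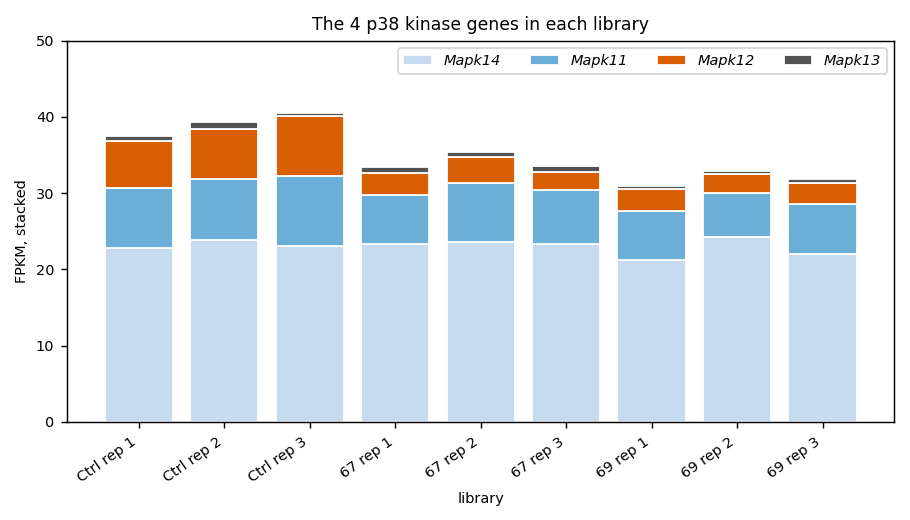
Stacked FPKM of the 4 p38 kinase genes in each library, from Mapk14 at the base to Mapk13 at the top. The Mapk14 segment lies between 21.3 and 24.2 FPKM in every library, and the Mapk12 segment shrinks from between 6.12 and 7.80 FPKM in OEA8_Ctrl to between 2.33 and 3.42 FPKM in the mutants.

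The JNK and ERK genes among the members were not called. Mapk8 and Mapk9, which encode JNK1 and JNK2, were at 3.97 ± 0.31 and 15.2 ± 0.69 FPKM in the control, 3.93 ± 0.44 and 14.8 ± 0.22 in OEA8_67, and 3.93 ± 0.25 and 14.1 ± 0.19 in OEA8_69. All Mapk9 libraries of OEA8_69 were below the controls, with a difference of -0.10 ± 0.05 (adjusted p = 0.190). Mapk3 was at 158 ± 16.1, 147 ± 4.34 and 156 ± 1.68 FPKM.

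Of the 6 response genes 5 were tested, and 3 of these passed the test in both mutants and did not move the same way. The share of all genes called in both mutants was not counted, so this count says nothing particular about the response genes. Tnfaip2 (chr12:111442450-111455018), a TNF-induced gene whose product acts on membrane protrusions, was at 38.02, 37.0 and 37.2 FPKM in OEA8_Ctrl, 29.1, 29.4 and 27.1 in OEA8_67, and 29.3, 28.6 and 28.6 in OEA8_69. The mutants overlapped each other and lay well below the controls. Tnfaip2 fell by 0.38 ± 0.04 in OEA8_67 (adjusted p = 0.000169) and by 0.36 ± 0.04 in OEA8_69 (adjusted p = 0.000172), to 76.3% and 77.1% of the control. Both calls held in all 19 alternatives, and the difference between the mutants was 0.02 ± 0.04, with a 95% interval from -0.08 to 0.11.

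Csf1 (chr3:107741048-107760469), whose promoter window holds an NF-kB match, was at 288, 273 and 276 FPKM in OEA8_Ctrl, 217, 233 and 222 in OEA8_67, and 193, 191 and 203 in OEA8_69. The 3 groups were fully separated, with OEA8_69 lowest. Csf1 fell by 0.32 ± 0.04 in OEA8_67 (adjusted p = 0.000996) and by 0.51 ± 0.04 in OEA8_69 (adjusted p = 1.23e-05), to 80.2% and 70.0% of the control, and both calls held in all 19 alternatives. Csf1 was also the member called between the mutants, 0.20 ± 0.04 lower in OEA8_69 (adjusted p = 0.0375). That call was lost in 9 of 19 alternatives, among them the removal of each mutant library in turn, with adjusted p between 0.0161 and 0.149.

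Sod2 (chr17:13007839-13018119), which encodes the mitochondrial superoxide dismutase and also carries an NF-kB match in its window, moved upwards. It was at 38.6, 39.6 and 39.7 FPKM in OEA8_Ctrl, 43.5, 44.3 and 46.8 in OEA8_67, and 46.8, 47.2 and 45.5 in OEA8_69. All mutant libraries were above all controls, and the mutants overlapped. Sod2 rose by 0.19 ± 0.04 in OEA8_67 (adjusted p = 0.0169) and by 0.24 ± 0.04 in OEA8_69 (adjusted p = 0.00310). The call in OEA8_67 was lost with only the compared groups in the model and without OEA8_Ctrl replicate 1, OEA8_67 replicate 2 or OEA8_67 replicate 3, with adjusted p between 0.0114 and 0.0811 over 19 alternatives, and that in OEA8_69 held in all 19.

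The remaining response genes did not pass the test or were too low for it. Vcam1, an adhesion molecule induced by TNF, was at 78.7 ± 4.26 FPKM in OEA8_Ctrl, 75.8 ± 1.70 in OEA8_67 and 73.5 ± 2.47 in OEA8_69. Cebpb was at 195 ± 29.7, 198 ± 10.52 and 226 ± 10.4 FPKM, and its difference in OEA8_69 was 0.22 ± 0.09 (adjusted p = 0.15). Icam1, an adhesion molecule of endothelial cells, leukocytes and stimulated fibroblasts, was at 0.34, 0.34 and 0.32 FPKM in OEA8_Ctrl, 0.16, 0.11 and 0.06 in OEA8_67, and 0.12, 0.05 and 0.11 in OEA8_69. The mutants overlapped and were below every control, at levels under the minimum for the test. Without that minimum Icam1 fell by 0.27 ± 0.04 in OEA8_67 (adjusted p = 0.00435) and by 0.29 ± 0.04 in OEA8_69 (adjusted p = 0.00213). The endothelial marker sum was lower in the same libraries, and its part in the level of Icam1 was not tested.

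**Figure D4:**
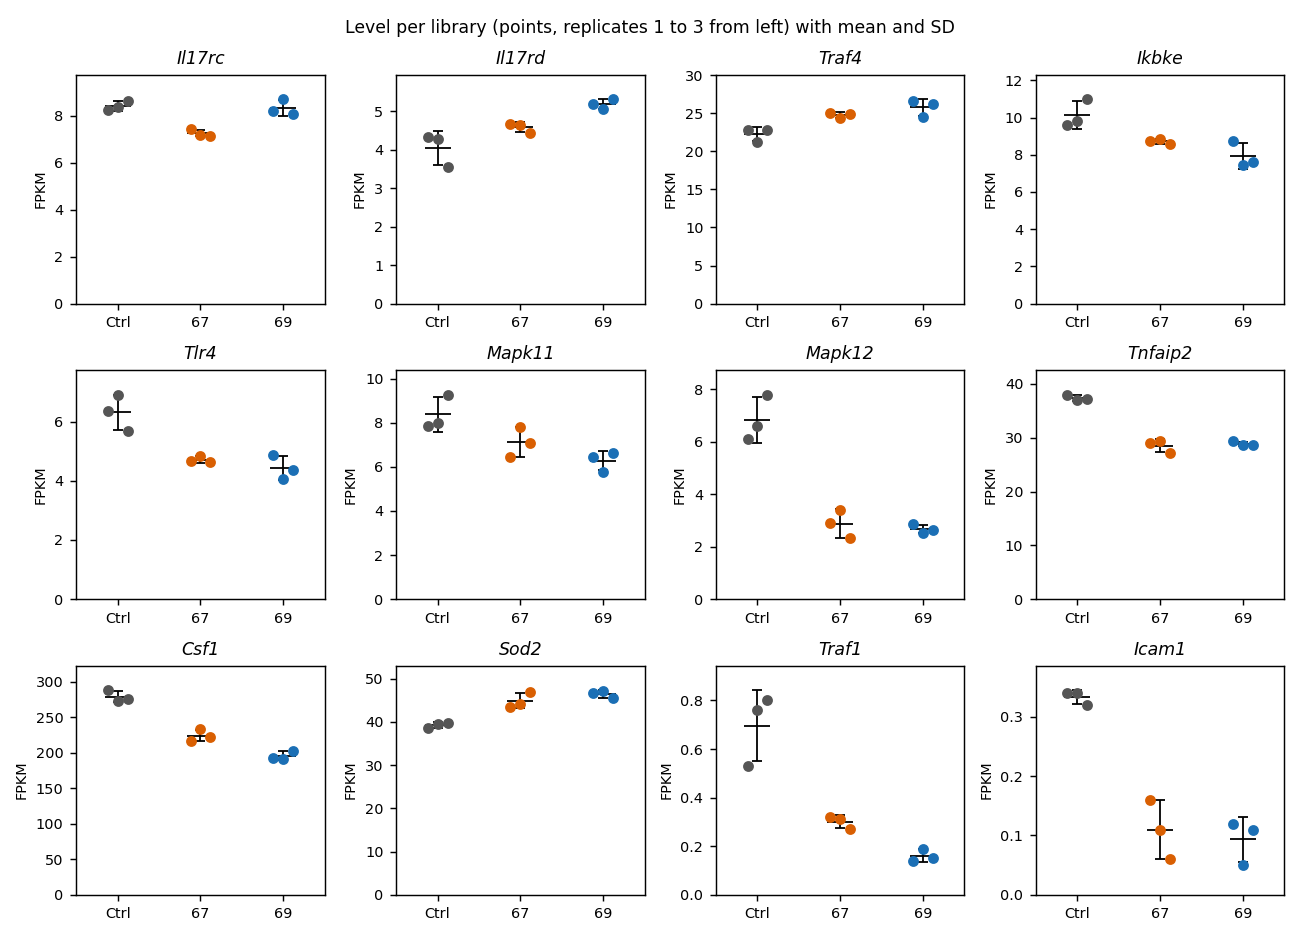
FPKM of the 10 genes called in at least 1 comparison and of Traf1 and Icam1, which were below the minimum for the test, in each library (points) with group mean and SD (bars, n = 3). Mapk12, Tlr4 and Tnfaip2 are lower in every mutant library than in every control library, Sod2 is higher, and Csf1 and Traf1 step down from control to OEA8_67 to OEA8_69.

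Around these 51 genes, further components of the same pathways were counted as well. Of 60 such genes 53 were tested, and 0 were called in OEA8_67, beside 7.88% of all genes. In OEA8_69, 0 rose and 5 fell, beside 4.55% and 5.24% of all genes, and 1 was lower in OEA8_69 than in OEA8_67, beside 1.27%. Besides Ly96, the genes with the smallest adjusted p in OEA8_69 were Hsp90aa1, the chaperone that stabilises IKK and RIPK1, which fell by 0.24 (adjusted p = 0.00413), Cflar, the gene of the caspase-8 inhibitor cFLIP, which fell by 0.39 (adjusted p = 0.00640), and Tnfrsf12a, the receptor of TWEAK, which fell by 0.27 (adjusted p = 0.0126). Hsp90aa1 was at 212, 219 and 209 FPKM in OEA8_Ctrl, 224, 206 and 218 in OEA8_67, and 181, 184 and 176 in OEA8_69, so that OEA8_69 was below both other groups. Cflar was not particular to OEA8_69. In OEA8_67 its libraries were all below the controls, and its difference of -0.26 narrowly missed the threshold (adjusted p = 0.0530, limma). There it was called lower in 5 of 19 alternatives, among them both other scalings and robust moderation. Without OEA8_69 replicate 2 the count that fell in OEA8_69 was 3. Without OEA8_Ctrl replicate 3 there were 2 that rose and 2 that fell in OEA8_67, 1 that rose and 6 that fell in OEA8_69, and 1 higher and 3 lower between the mutants, while the removal of OEA8_67 replicate 1 left 0 between them.

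The ligands of the pathways were scarce. Of 17 listed genes 15 were in the table and 4 were above the minimum for the test, and 0 of those were called. Some of the untested ligands still separated by group, at levels where few fragments carry the value. Il17c was higher in every OEA8_69 library than in all others, with means of 0.15, 0.157 and 0.323 FPKM in OEA8_Ctrl, OEA8_67 and OEA8_69. Il1a was lower in every mutant library than in every control, with means of 0.543, 0.313 and 0.173 FPKM. Tnf was at most 0.10 FPKM and Il17f at most 0.09 FPKM in a library, Il25 was listed at 0 in 8 of 9 libraries, and S100a9, the usual partner of S100a8, in 8 of 9. Il17d and Tnfsf12, the gene of TWEAK, were between 4.20 and 5.91 FPKM and between 33.0 and 43.8 FPKM.

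Known target genes of IL-17 and TNF outside the 51 formed a further list. Of 50 listed target genes 45 were tested. In OEA8_67, 0 rose and 12 fell, beside 3.21% and 4.66% of all genes, and in OEA8_69, 4 rose and 10 fell, beside 4.55% and 5.24%. Between the mutants 6 were higher and 5 lower in OEA8_69, beside 1.89% and 1.27% of all genes. The median log2 fold change of the list was -0.11 in OEA8_67 and -0.06 in OEA8_69, beside 0.02 over all genes in both. The smallest adjusted p values, each reached in OEA8_69, were those of 3 matrix proteases and a chemokine. Mmp3 fell by 0.31 in OEA8_67 and by 1.01 in OEA8_69, and Mmp13 fell by 0.47 and by 0.95. Mmp9 fell by 0.67 and by 0.79, and Ccl2, which attracts monocytes, fell by 0.29 and by 0.49. In OEA8_67 the fall of Jag1, 0.73 on the log2 scale (adjusted p = 0.000224), exceeded those of all 4, and Jag1 was singled out after its values were seen. Cxcl12, by contrast, rose by 0.29 in OEA8_69 (adjusted p = 0.00416, limma). Cxcl1 and Cxcl5 were higher in OEA8_69 than in OEA8_67, by 0.33 and 0.37 (adjusted p = 0.0115 and adjusted p = 0.0151, limma). Against the control neither was called in OEA8_69, at 0.18 and 0.10 (adjusted p = 0.0713 and adjusted p = 0.411, limma). In OEA8_67 Cxcl5 fell by 0.27 (adjusted p = 0.0328, limma), and Cxcl1 differed by -0.15 (adjusted p = 0.148, limma). These 3 chemokines were likewise singled out after their values were seen. Without OEA8_67 replicate 3 the count that fell in OEA8_67 was 8, and without OEA8_69 replicate 3 the count that rose in OEA8_69 was 2. Between the mutants the counts were 3 higher and 3 lower without OEA8_67 replicate 2, and 3 were lower without OEA8_67 replicate 1 or 3 or OEA8_69 replicate 2 or 3. These lists were chosen with earlier results of these libraries known, and their counts are not independent evidence of a direction.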

How the data were processed

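RNA-seq was performed on 9 mouse libraries, 3 each for OEA8_Ctrl, OEA8_67 and OEA8_69, and groups were assigned from the sample labels. Total RNA was isolated with TRIzol and sequenced on a BGISEQ-500 (DNBSEQ) system. The submitters' processing notes list Bowtie2 2.2.5, HISAT2 2.0.4 and mm10, and the study's methods add RSEM (version not given in the sources used here). FPKM were calculated by the authors for each gene and library and deposited as such, and they correct for transcript length and library size. They also deposited group means, which were used only to check the columns. Strand handling and the depth of each library are not stated, and no count model was applied.

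FPKM were transformed to log2(FPKM + 1). Of 19240 genes, the 12012 averaging 0.5 FPKM or more entered a single model of all 9 libraries in limma 3.58.1 (R 4.3.3) with trended empirical Bayes moderation. P-values were adjusted over all genes tested by the Benjamini-Hochberg method and called under 0.05. Errors of levels are SD over 3 libraries, those of fold changes are the moderated SE, and intervals cover 95%. The fit was tested on simulated data. Positions and promoter windows are from RefSeq (GRCm38.p6), with 41 of 51 genes matched to windows. The alternatives were pseudocounts of 0.1 and 0.5 FPKM, no minimum level or 5 FPKM, 2 other scalings, moderation made robust or without a trend, a model of the compared groups alone, a replicate block, and each library left out in turn.

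The 51 genes and the lists of further components, ligands, targets, interferon-stimulated genes and cell type markers were chosen with earlier results of these data known. Per-library values are given for every member called in any comparison, and also for Traf1 and Icam1, chosen after their values were seen. Of the further components and the targets, up to 4 called genes by smallest adjusted p are named. The interferon-stimulated genes are given by their sum and counts alone. Ly96, Hsp90aa1 and the ligands are described with library values. Jag1, Cxcl12, Cxcl1, Cxcl5, Il17c and Il1a were added after their values were seen. The neighbours of Mapk12 were taken by position. Figures were drawn in Python 3.11.15 with matplotlib 3.10.9.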

Additional observations from a re-analysis of the deposited data

Results flagged for a closer look

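Csf1 was the member whose effect differed between the mutants by a test of the difference itself. Its fold change against the control was -0.32 in OEA8_67 and -0.51 in OEA8_69, a difference of -0.20 on the log2 scale (adjusted p = 0.0375, limma), and it was lower in 3 of 3 OEA8_69 libraries than in every OEA8_67 library. The call was lost in 9 of 19 alternatives, including the removal of any library of either mutant (adjusted p up to 0.149). No technical or biological cause was tested. With 3 libraries per group, single outlying libraries were examined only by leaving out each library in turn.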

How the results depend on the processing

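In the alternatives run, 0 called results changed direction, while differences near 0 that were not called could change sign. Mapk12, Tnfaip2 and Csf1 against the control in both mutants, and Ikbke, Tlr4 and Sod2 in OEA8_69, were called in every alternative that tested them. With only the compared groups in the model, 0 members rose in OEA8_67, and 2 members, Tnfrsf1a and Cebpb, were higher in OEA8_69 than in OEA8_67. The count lower in OEA8_69 than in OEA8_67 was 0 without a minimum level, with moderation without a trend and with the replicate block. Leaving out each library in turn gave between 0 and 2 members higher and 3 and 4 lower in OEA8_67, 1 and 6 higher and 5 and 8 lower in OEA8_69, and 0 and 2 higher and 0 and 1 lower between the mutants. The causes were not tested.

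Same-numbered libraries deviated from their group means with correlations between -0.25 and 0.15, and differently numbered ones between -0.19 and 0.28. Not every library correlated best with its own number. The labels do not say whether the numbers pair the libraries, and correlations over 3 libraries per group cannot settle it. With the replicate block 1 member rose and 4 fell in OEA8_67, and 3 rose and 6 fell in OEA8_69. Over all genes the removal of a library moved the counts between the mutants from 227 higher and 152 lower to between 82 and 589 and between 41 and 445. Against the control they went from 386 and 560 to between 125 and 468 and 331 and 580 in OEA8_67, and from 546 and 630 to between 293 and 952 and 442 and 842 in OEA8_69. In the other alternatives these counts were between 128 and 552 and 80 and 424, 182 and 445 and 363 and 652, and 328 and 556 and 421 and 710. The minimum of 5 FPKM left Mapk12 and Il17rd untested. Depth is unknown, so the counting error of the scarce Traf1, Icam1, Il17re and Mapk13 cannot be given.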
